A study of Mus musculus with 6 samples.

Results

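The genes of one receptor pathway were followed across single cells of the mouse spinal cord: Trem2, its signalling adaptor Tyrobp, the receptors Clec7a and Cd33, and the enzymes Syk, Plcg2 and Inpp5d. These were chosen by name and are 7 of the 18792 genes in the deposited table, which holds 13614 cells. The libraries came from Nd6 mice with experimental autoimmune encephalomyelitis (EAE, 2 libraries), WT mice with EAE (2), Nd6 healthy controls (1) and WT healthy controls (1). In Nd6 mice a base of mt-Nd6, which the mitochondrial genome encodes for complex I of the respiratory chain, is changed in every cell type rather than in microglia alone. EAE was raised by immunization with a myelin oligodendrocyte glycoprotein peptide, and cords were taken 30 days later. The study's methods give adult females for EAE and mice of both sexes as healthy controls. All animals were perfused with actinomycin D and triptolide, which block transcription, before dissociation and removal of myelin, and no cell type was sorted according to the labels. The cell names fall into 6 sets by their ending, called A to F here by size (4633 to 809 cells), but no label or cell name says which library a set came from. Nd6 and WT mice, or EAE and control mice, were therefore not compared, the whole table counts as 1 pooled sample, and no p-value is given. Spreads are the SD over cells or the range over sets.

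Trem2 is a cell surface receptor of microglia and other macrophages that binds lipids and lipoproteins, Apoe among them. It has almost no signalling tail of its own and relies on Tyrobp (DAP12), whose ITAM motif is phosphorylated by Src family kinases and then recruits the kinase Syk, which activates Plcg2. Inpp5d (SHIP1) is a lipid phosphatase that dampens the pathway, Clec7a (Dectin-1) is a lectin that reaches Syk through its own ITAM-like tail, and Cd33 is a sialic acid-binding lectin whose human form carries inhibitory ITIM motifs. Clec7a and Apoe are widely used as markers of microglia that have left the homeostatic state, and P2ry12 and Tmem119 as markers of those that have not.

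The promoters of Trem2 and Clec7a are shown because these receptors differed in opposite directions between the cell classes described next. Both windows are RefSeq sequence of build GRCm38.p6, 300 bases each, written 5′ to 3′ along the gene's own strand. Trem2 lies on chromosome 17 (48346401 to 48352276) and its window is chr17:48346151-48346450 on the plus strand. Clec7a lies on chromosome 6 (129461591 to 129472785) and its window is chr6:129472730-129473029 on the minus strand. Capitals mark GAGGAA or its reverse complement TTCCTC, the core bound by ETS factors such as PU.1, searched on both strands.
Trem2: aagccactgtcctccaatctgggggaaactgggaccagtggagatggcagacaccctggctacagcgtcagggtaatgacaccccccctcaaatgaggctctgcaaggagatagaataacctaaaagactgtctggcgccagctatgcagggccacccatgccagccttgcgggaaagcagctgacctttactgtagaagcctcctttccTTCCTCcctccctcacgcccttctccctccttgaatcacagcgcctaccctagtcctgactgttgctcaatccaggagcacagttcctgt
Clec7a: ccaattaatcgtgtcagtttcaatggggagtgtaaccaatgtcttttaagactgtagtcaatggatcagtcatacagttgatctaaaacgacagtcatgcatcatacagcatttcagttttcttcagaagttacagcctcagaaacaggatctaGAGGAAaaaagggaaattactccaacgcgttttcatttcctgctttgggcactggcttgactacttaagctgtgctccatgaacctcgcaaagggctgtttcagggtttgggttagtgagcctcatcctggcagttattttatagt
Each window held 1 copy, as did 28.3% of all 32851 promoter windows of this length that were searched (at least 1 copy), so the letters set neither gene apart. Of the other members, Inpp5d (chromosome 1, 87620312 to 87720510) had 2 copies, Cd33 (chromosome 7, 43527399 to 43537424) had 1, and Plcg2 (chromosome 8, 117498275 to 117635142) had 0. Syk (chromosome 13, 52582610 to 52648792) had 1 copy in one of its windows and 0 in the other, and Tyrobp lies on chromosome 7 (30413782 to 30417582).

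Cells were divided by 2 gates. Apoe-high cells had an Apoe value of 20 or more and fell short of the homeostatic gate (8954 cells), and homeostatic-marked cells had P2ry12 plus Tmem119 of 2 or more with Apoe under 20 (1160 cells). Another 465 cells met both gates and 3035 met neither. The deposited values are whole numbers that sum to 687 to 1578 per cell (median 962), and cells had a median of 547 detected genes. In Apoe-high cells P2ry12 averaged 0.107 and Tmem119 0.1001, against 2.21 and 1.09 in homeostatic-marked cells, while Apoe averaged 74.96 in Apoe-high and 2.49 in homeostatic-marked cells, as the gates require. Genes that the gates did not use followed the labels: all 12 other homeostatic microglial markers had a lower mean in Apoe-high cells, and all 12 markers of disease-associated microglia had a higher one. Their summed means were 5.41 in Apoe-high cells against 21.8 in homeostatic-marked cells for the homeostatic list, and 14.2 against 1.88 for the disease-associated list. The classes and the sets overlap little. Sets A, B, C and F held 4343, 2601, 1499 and 491 Apoe-high cells and sets D and E held 10 each, whereas D and E held 544 and 430 homeostatic-marked cells. Only B (119) and F (66) had both classes in numbers above 30, so within-set values come from these sets alone, and class and set cannot otherwise be told apart. Across sets, 18 barcodes occurred in more than 1 set.

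Trem2 was broadly detected in both classes and was somewhat lower in Apoe-high cells. Its mean value was 1.57 ± 1.43 in Apoe-high cells and 1.95 ± 1.68 in homeostatic-marked cells (SD over 8954 and 1160 cells), a difference of -0.38. A value above 0 was found in 72.6% of Apoe-high cells (exact 95% interval 71.7 to 73.5) and in 78.2% of homeostatic-marked cells (75.7 to 80.5), intervals that cover counting error only. By set, Apoe-high means were 1.82 in A, 1.12 in B, 1.53 in C and 1.93 in F, and homeostatic-marked means were 2.01 in B, 1.95 in D, 1.88 in E and 2.42 in F. The 2 groups of set means overlapped, since Apoe-high cells of set F lay above homeostatic-marked cells of set E. Within sets the lower level recurred, at 1.12 in Apoe-high against 2.01 in homeostatic-marked cells of B (difference -0.89) and 1.93 against 2.42 in F (difference -0.49). Without set B the pooled difference was -0.19, and with an Apoe gate of 50 or more it was -0.0086 (1.87 in Apoe-high, 1.88 in homeostatic-marked cells).

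Set B stood apart in its monocyte markers and, in Apoe-high cells, in its Trem2 level. In homeostatic-marked cells the Trem2 mean of B (2.01) lay within the range of the other sets (1.88 in E to 2.42 in F). The summed value of 11 markers of monocytes and infiltrating macrophages averaged 2.16 in Apoe-high cells of B and 0.283 to 0.506 in those of A, C and F. In homeostatic-marked cells the same sum averaged 0.748 in B and 0.0209 to 0.106 in D, E and F. Within the Apoe-high cells of B, Trem2 averaged 1.18 in 417 cells with no detected monocyte marker, 1.105 in 1572 cells with 1 or 2 and 1.11 in 612 cells with 3 or more. A cell without a detected marker can still be a monocyte, and the part of such cells in the Trem2 level of B was not tested. Over all sets, leaving out every cell with a monocyte marker gave 1.68 in Apoe-high and 1.99 in homeostatic-marked cells. Cells that met both gates had Trem2 means of 1.20 in B and 1.83 to 2.32 in A, C and F, so that B was again the lowest.

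Tyrobp, the adaptor on which Trem2 depends, was the most evenly spread member. It was above 0 in 92.2% of Apoe-high cells (91.6 to 92.7) and 92.1% of homeostatic-marked cells (90.4 to 93.6), with means of 3.43 ± 2.18 and 3.52 ± 2.34 (SD over cells). The difference of -0.08 had no stable sign: in B it was -0.34 (3.08 in Apoe-high, 3.41 in homeostatic-marked cells) and in F 0.05 (3.70 and 3.65), and it turned positive after scaling to the cell total. Set means ran over 3.08 to 3.70 in Apoe-high cells and 3.41 to 3.65 in homeostatic-marked cells. Trem2 and Tyrobp were detected together in 68.6% of Apoe-high and 73.3% of homeostatic-marked cells. Tyrobp without Trem2 was found in 23.6% of Apoe-high and 18.8% of homeostatic-marked cells, and Trem2 without Tyrobp in 4.01% and 4.91%.

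Clec7a was the member with the widest contrast and the only one higher in Apoe-high cells in both sets that held both classes. Its mean was 0.515 ± 0.772 in Apoe-high cells and 0.0629 ± 0.282 in homeostatic-marked cells (SD over cells), and it was above 0 in 37.8% (36.8 to 38.8) and 5.26% (4.05 to 6.70) of them. By set, Apoe-high means were 0.581 in A, 0.543 in B, 0.332 in C and 0.344 in F, while homeostatic-marked means were 0.370 in B, 0.0221 in D, 0.0209 in E and 0.121 in F. The pooled 8.18-fold ratio was therefore far from the within-set ratios, which were 1.47 in B and 2.84 in F. Homeostatic-marked cells of B carried more Clec7a than Apoe-high cells of C or F, so the set means overlapped. The summed disease-associated markers differed in the same way among homeostatic-marked cells, at 5.71 in B, 3.77 in F, 1.30 in D and 1.26 in E, and their part in the Clec7a level was not tested.

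**Figure D1:**
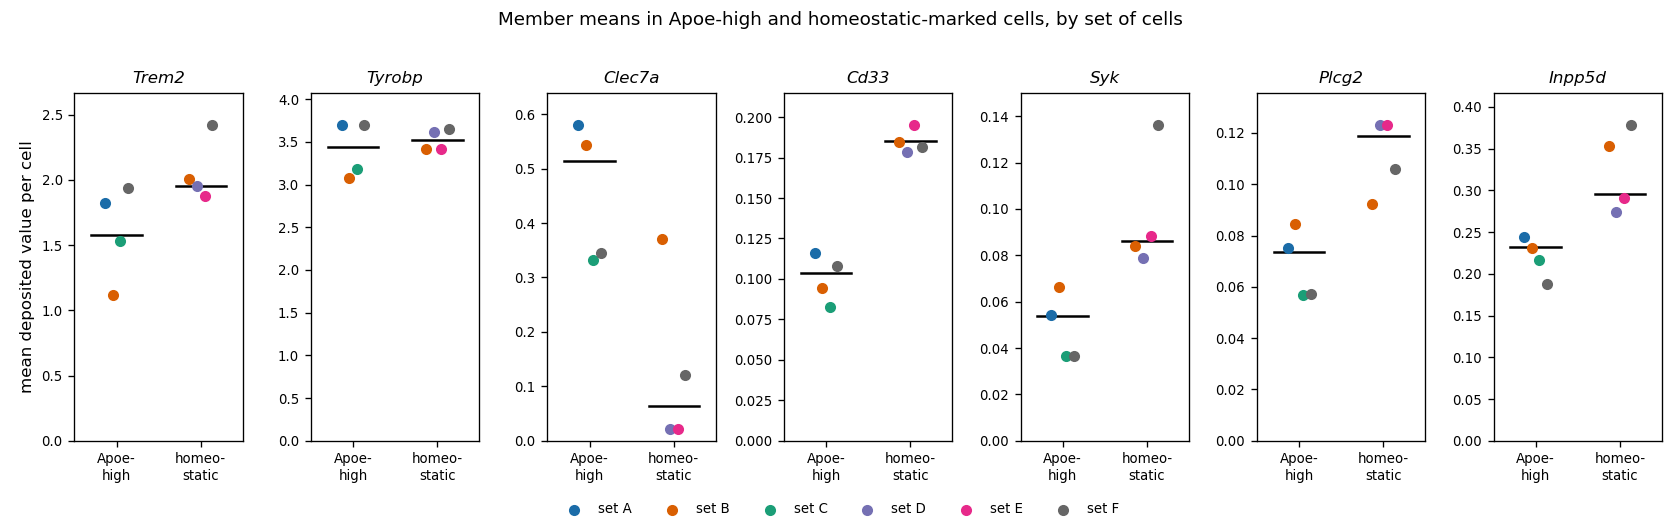
Mean deposited value per cell of each member (vertical axis, own scale per gene) in Apoe-high and homeostatic-marked cells. Points are sets with at least 30 cells of the class, and the bar is the mean over all cells of the class. Clec7a is high in all Apoe-high sets and in the homeostatic-marked cells of set B (0.370). Set means of Cd33, Inpp5d, Syk and Plcg2 do not overlap between classes, and the share of all genes that do the same was not counted.

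The remaining receptor and the enzymes were detected in few cells and were lower in Apoe-high cells. Cd33 averaged 0.104 in Apoe-high and 0.185 in homeostatic-marked cells, and was above 0 in 9.64% (9.03 to 10.3) and 15.9% (13.9 to 18.2). Its set means were 0.0827 to 0.116 in Apoe-high cells and 0.178 to 0.195 in homeostatic-marked cells. These did not overlap, nor did those of Inpp5d, Syk and Plcg2, and the share of all genes that do the same was not counted. The within-set differences were close to the pooled -0.08, at -0.09 in B and -0.07 in F.

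Inpp5d averaged 0.232 in Apoe-high and 0.296 in homeostatic-marked cells. It was above 0 in 19.9% (19.1 to 20.7) of Apoe-high and 24.6% (22.1 to 27.2) of homeostatic-marked cells. Its set means of 0.187 to 0.244 in Apoe-high cells lay below those of 0.274 to 0.379 in homeostatic-marked cells. The within-set gaps were wider than the pooled -0.06, at -0.12 in B and -0.19 in F.

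Syk averaged 0.0539 in Apoe-high and 0.0862 in homeostatic-marked cells, with a value in 5.16% (4.71 to 5.64) and 7.93% (6.44 to 9.64) of them. Set means were 0.0367 to 0.0665 in Apoe-high and 0.0790 to 0.136 in homeostatic-marked cells, the highest being the 66 cells of F. Plcg2 averaged 0.0737 in Apoe-high and 0.119 in homeostatic-marked cells, with a value in 6.88% (6.36 to 7.42) and 10.9% (9.13 to 12.8). In set B the Plcg2 gap almost closed, at 0.0846 in Apoe-high and 0.0924 in homeostatic-marked cells. Apoe-high cells also had a lower total value (median 968, against 1079.5 in homeostatic-marked cells) and a lower summed value of 12 pan-myeloid markers (median 30, against 41 in homeostatic-marked cells), and the part of either in these differences was not tested.

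Set against all genes, the members did not move as a block. Of 6315 genes with a mean of at least 0.02, 20.2% had a ratio of Apoe-high to homeostatic-marked means of at least 1.5, and 24.7% a ratio of at most 1/1.5. All 7 members passed this minimum. One of them, Clec7a, was past the upper limit, with only 2.03% of tested genes having a larger ratio, and 3, Cd33 (0.56), Plcg2 (0.62) and Syk (0.63), were past the lower limit. After scaling each cell to a total of 10000, those 3 ratios became 0.59, 0.69 and 0.68, so that only Cd33 stayed past it. On scaled values 23.4% of all tested genes were past the upper limit and 19.95% past the lower. Scaling moved the median ratio of all tested genes to 1.00 from 0.92. Trem2 (0.81), Inpp5d (0.79) and Tyrobp (0.98) lay within both limits.

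Pooled over sets, the level of Trem2 followed Apoe in a valley. No single set filled the whole axis with bins of at least 30 cells, so the full shape could not be looked for within a set. Such bins began at Apoe of 20 in A and C, at 5 in F and at 1 in B, and ended at 9 in D and 4 in E. With lineage-marked cells (defined later) left out, mean Trem2 was 1.82 at an Apoe of 0 (1235 cells), 1.66 at 1 to 4, 1.19 at 5 to 9, 1.17 at 10 to 19, 1.17 at 20 to 29, 1.17 at 30 to 49, 1.76 at 50 to 99 and 1.98 at 100 or more (3326 cells). The sets differed along this axis. In B, which gave most cells with Apoe of 5 to 49, Trem2 was 0.418 at Apoe of 1 to 4 (55 cells), 0.913 at 5 to 9 and 1.32 at 50 to 99, and in A it was 1.16 at 20 to 29 and 2.02 at 100 or more. In C it was 0.863 at 20 to 29 and 1.75 at 100 or more, and in F it stayed between 1.68 and 2.17. In D and E, at Apoe of 0 to 4, it was 1.67 to 1.85. Within A, B and C, cells of the highest Apoe bin thus had more Trem2 than those of the lowest, although in B it did not change between 10 to 19 (1.09) and 30 to 49 (1.102). More genes were also detected in the highest bin of A, with a median of 687 at 100 or more and 431.5 at 20 to 29. Scaled to a total of 10000, Trem2 in A was still 13 at 20 to 29 and 18.02 at 100 or more.

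Pooled Tyrobp showed a shallower dip, with 3.55 at an Apoe of 0, 2.80 at 10 to 19 and 3.89 at 100 or more. Clec7a was 0.0259 at an Apoe of 0, 0.0805 at 1 to 4, 0.343 at 5 to 9, 0.421 at 10 to 19 and 0.605 at 100 or more. The step between 1 to 4 and 5 to 9 again followed the sets, because at Apoe of 1 to 4 Clec7a was 0.564 in B, 0.0314 in D and 0.0502 in E. Across the Apoe gate itself, at 10 to 19 and 20 to 29, no step was seen for Trem2 (1.17 and 1.17) or Clec7a (0.421 and 0.436). There were 518 cells with Apoe of 15 to 19 and 462 with 20 to 24.

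**Figure D2:**
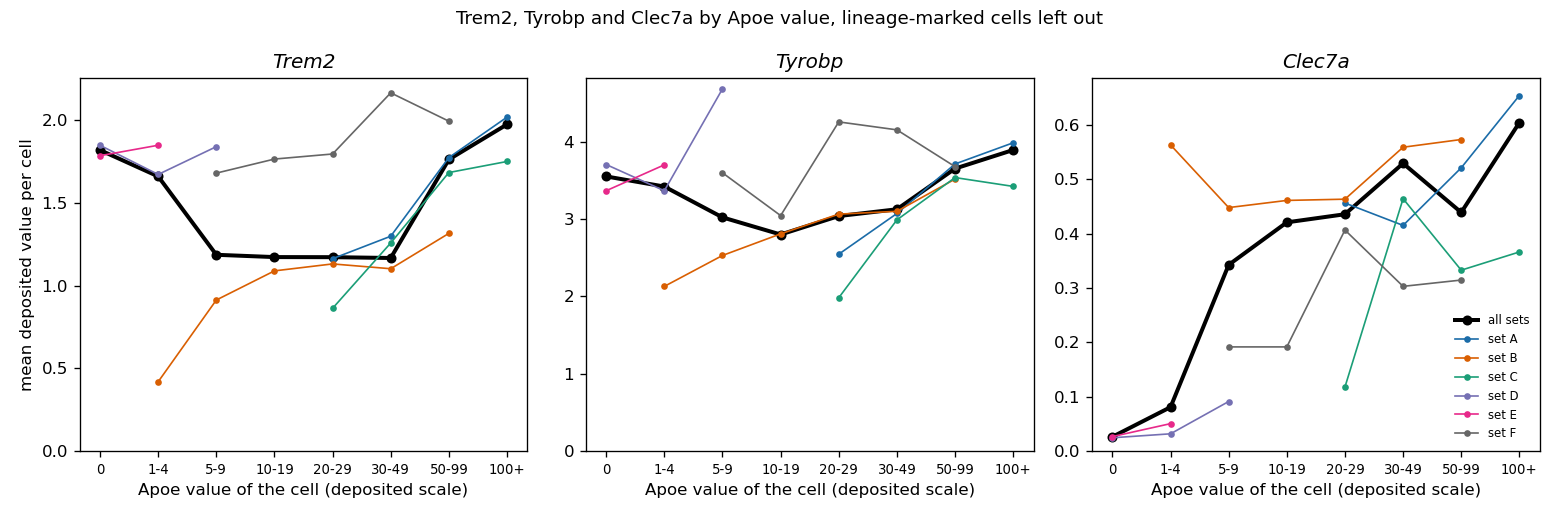
Mean deposited value of Trem2, Tyrobp and Clec7a per cell (vertical axes) by the Apoe value of the cell (horizontal axis, unequal bins), with lineage-marked cells left out. The black line pools all sets, and coloured lines are sets with at least 30 cells in a bin. The pooled Trem2 valley (1.17 at Apoe of 10 to 49) lies close to set B, which is below set F in every bin they share.

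Along the other gate the members separated more clearly. With P2ry12 plus Tmem119 at 0, 1, 2, 3, 4 to 5, and 6 or more, mean Trem2 was 1.52, 1.64, 1.84, 1.95, 2.11 and 2.32 (8117, 2556, 796, 387, 301 and 111 cells). Cd33 was 0.0982, 0.113, 0.146, 0.155, 0.193 and 0.324 in the same bins, and Clec7a 0.491, 0.414, 0.250, 0.150, 0.0565 and 0.0541. Pooled over sets, Trem2 and Cd33 were thus highest, and Clec7a lowest, in the cells richest in homeostatic markers. Cd33 kept this order after scaling at the ends, with 0.995 at 0 and 3.01 at 6 or more. Inpp5d was 0.222 at 0 and 0.360 at 6 or more, Plcg2 0.0738 and 0.216, and Syk 0.0589 and 0.126. Tyrobp was flat, at 3.41 in the lowest bin and 3.39 in the highest. Within sets Clec7a changed less than in the pool. At 0 and at 2 it was 0.591 and 0.522 in A, 0.550 and 0.440 in B, 0.355 and 0.340 in C, and 0.354 and 0.219 in F. In D and E it was already 0.0449 and 0.0483 at 0, so the pooled fall also follows the sets that fill each bin. In sets D and E, 0 of 348 cells with 4 or more had a Clec7a value, which allows a share of up to 0.862% of such cells with a value (3 counts of the total), and says nothing of cells that express it below detection. In these sets Trem2 averaged 1.57 in D and 1.65 in E at 0, and 2.36 in D and 2.05 in E at 6 or more. Scaled to a total of 10000 the Trem2 order held in D (17.6 at 0, 21.3 at 6 or more) but turned round in E (18.02 and 17.2). Gene number also differed along this axis, with a median of 530 detected genes at 0 and 655 at 6 or more. At the edge of the gate, 2665 cells had a sum of 1 and 815 had 2.

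Cells marked for other lineages gave a background level of the members, which depended on the myeloid limit used. A cell was called lineage-marked when it had at least 3 different markers of a lineage, more than of any other, and a summed pan-myeloid value under 15, a limit that was set after the values had been seen because Apoe-high cells themselves had a median of 3 detected oligodendrocyte markers. This gave 1346 cells, of which 237 lay near the limit with a sum of 12 to 14. In the 1228 oligodendrocyte-like, astrocyte-like, ependymal-like, endothelial-like and pericyte-like or smooth muscle-like cells, Trem2 was above 0 in 21.9% (19.6 to 24.3) and Tyrobp in 41.3% (38.5 to 44.1). The shares were lower under stricter myeloid limits, at 5.75% for Trem2 and 11.8% for Tyrobp in the 313 cells with at most 1 detected pan-myeloid gene. They serve as the background for the shares in other cells, since these lineages should lack both genes and had medians of 384 to 792 detected genes, against 568 in Apoe-high cells. Apoe was at 20 or more in 221 of 765 oligodendrocyte-like and 28 of 51 astrocyte-like cells, and mixing with myeloid cells was not tested.

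The background was uneven between lineages, and for Trem2 it ran in the order of the pan-myeloid value. Trem2 was above 0 in 39.2% of 51 astrocyte-like cells (median pan-myeloid sum 10), 23.9% of 765 oligodendrocyte-like cells (7), 19.6% of 56 pericyte-like or smooth muscle-like cells (6), 16.2% of 259 endothelial-like cells (4) and 13.4% of 97 ependymal-like cells (1). Tyrobp was above 0 in 68.6%, 44.2%, 50%, 32.05% and 23.7% of the same cells. By set, the Trem2 share was 11.7 to 38.8% of oligodendrocyte-like cells and 0 to 39.5% of endothelial-like cells. The 5 other members were rare here, with Clec7a in 7.41%, Inpp5d in 5.86%, Cd33 in 2.77%, Plcg2 in 2.28% and Syk in 1.22% of the 1228 cells. In Apoe-high cells, the shares of Cd33 (9.64%), Syk (5.16%), Plcg2 (6.88%) and Inpp5d (19.9%) lay above these levels, outside the counting intervals. The 2 groups share cells, as 335 Apoe-high cells were themselves marked for some lineage, and the intervals do not cover differences between sets.

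The immune lineages differed from this background by gene. Inpp5d, which is used by blood cells of all kinds, was above 0 in 52.3% of 86 T-like or NK-like cells (41.3 to 63.2), against 19.9% of Apoe-high cells and 5.86% of the 5 resident lineages. In the same T-like or NK-like cells Trem2 was above 0 in 13.95% (7.42 to 23.1), Tyrobp in 34.9% and Syk in 2.33%, within the range of the resident lineages for Trem2 and Tyrobp. The 16 neutrophil-like cells had Tyrobp in 100% (79.4 to 100), Syk in 43.8% (19.8 to 70.1), Inpp5d in 50% and Clec7a in 43.8%, but Trem2 in 2 of 16 (12.5%, 1.55 to 38.3). Tyrobp also serves receptors other than Trem2, Trem1 of neutrophils among them. The 6 cells with B cell or plasma cell markers had Plcg2 in 66.7% (22.3 to 95.7), Inpp5d in 83.3% (35.9 to 99.6), Syk in 50% (11.8 to 88.2) and Trem2 in 0, a pattern that rests on 6 cells. Syk and Plcg2 also act below the B cell antigen receptor.

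**Figure D3:**
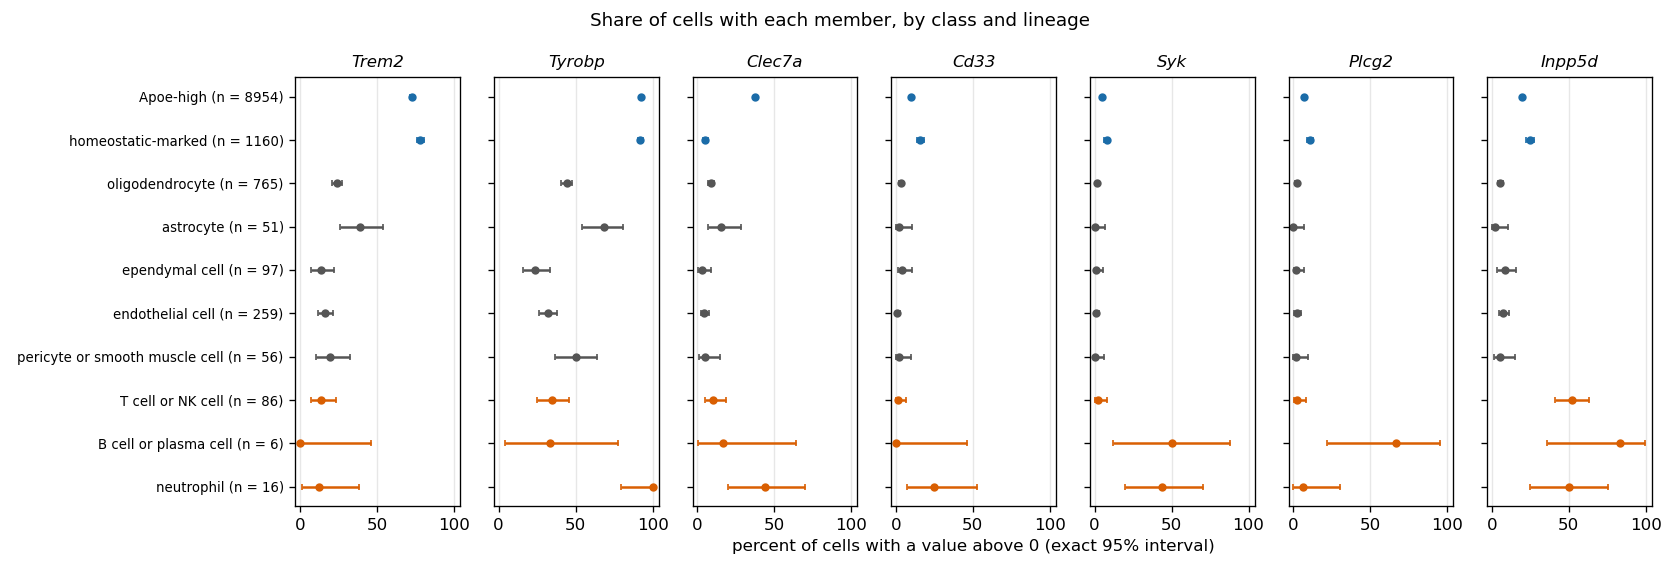
Percent of cells with a value above 0 for each member (horizontal axis) by class or lineage, with exact 95% intervals for counting error. Blue points are the myeloid classes, grey the resident lineages and orange the T-like or NK-like, B-like or plasma-like and neutrophil-like cells. Inpp5d stands at 52.3% in T-like or NK-like cells, and Trem2 at 12.5% in neutrophil-like cells in which Tyrobp is at 100%.

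Myeloid cells with other marker sets were also measured. The 737 cells with at least 3 monocyte or infiltrating macrophage markers, 705 of them in set B, had Trem2 at 1.11, Tyrobp at 3.08 and Clec7a at 0.602. The Apoe-high cells of that set had 1.12, 3.08 and 0.543. These groups share cells, so their closeness is partly built in. Of the 737 cells, 685 were at or above the Apoe gate, and 612 of the 2601 Apoe-high cells of B had 3 or more of these markers. The 181 cells with at least 3 proliferation markers, 154 of them in B, had Trem2 at 1.02 and Plcg2 in 12.7% (8.23 to 18.5). The 11 border macrophage-like cells had Trem2 in 54.5% (23.4 to 83.3) and Inpp5d in 45.5% (16.7 to 76.6).

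The partners of the members were read from 11 lists of 68 genes, of which 51 passed the minimum mean. Of these, 13 had a ratio of at least 1.5 and 19 a ratio of at most 1/1.5, that is 25.5% and 37.3% beside 20.2% and 24.7% of all tested genes, and their median ratio was 0.90 beside 0.92. Pooled over sets, both Syk-coupled C-type lectins that were tested (of 3 listed) were higher in Apoe-high cells. Both other Tyrobp-paired receptors that were tested (of 11 listed) were lower. Of the 10 ITIM receptors 4 were higher and 3 lower, and of the 6 Src and Tec family kinases 2 were higher and 4 lower. Both sheddases were past the lower limit, although on scaled values Adam17 (0.69) was not, and in set F Adam17 was at 0.0957 in Apoe-high and 0.0606 in homeostatic-marked cells.

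Among the Tyrobp-paired receptors, Siglech, which is also one of the homeostatic markers, averaged 0.122 in Apoe-high and 1.04 in homeostatic-marked cells, a ratio of 0.12. In set B it was 0.141 in Apoe-high against 0.571 in homeostatic-marked cells, and in F 0.255 against 0.879. Among the Syk-coupled lectins, Clec4n (Dectin-2) had a value in 3.95% of Apoe-high cells and in 5 of 1160 homeostatic-marked cells, and Clec4d in 2.95% and also 5 of 1160. Their pooled Apoe-high means were 0.0429 and 0.0305, against 0.115 and 0.0730 in Apoe-high cells of set B, the set richest in monocyte markers. Homeostatic-marked cells of B had 0.0336 for each. In F the means were 0.0407 and 0.0183 in Apoe-high cells, and 0.0152 and 0 in homeostatic-marked cells. Inhibitory receptors were divided. Cd300lf was at 0.157 in Apoe-high and 0.0121 in homeostatic-marked cells (ratio 13.04), but 13 of the 14 homeostatic-marked cells in which it was found were in set B, where the means were 0.278 and 0.109. Lilr4b was found in 5.58% of Apoe-high cells and 5 homeostatic-marked cells, and Clec12a in 2.78% and 3 cells. Clec4a2 was lower, with 0.0231 in Apoe-high and 0.103 in homeostatic-marked cells.

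The kinases that start or extend the signal were divided as well. Lyn, a Src family kinase, averaged 0.268 in Apoe-high and 0.759 in homeostatic-marked cells (ratio 0.35), with 0.298 against 0.756 in set B and 0.236 against 0.561 in set F. Btk, a Tec family kinase upstream of Plcg2, was at 0.0472 in Apoe-high and 0.151 in homeostatic-marked cells. Fyn was higher, at 0.0738 against 0.0276, and Fgr was found in 3.80% of Apoe-high cells and in 5 homeostatic-marked cells. Further down, the scaffold Gab2 was at 0.203 in Apoe-high and 0.0569 in homeostatic-marked cells (ratio 3.56), with 0.205 against 0.109 in B and 0.155 against 0.0455 in F. The adaptor Sh3bp2 was at 0.0686 against 0.0224, and the ubiquitin ligase Cblb in 2.94% of Apoe-high cells and 7 homeostatic-marked cells. The phosphoinositide kinase subunit Pik3cg was lower (0.0342 in Apoe-high, 0.120 in homeostatic-marked cells), as were Bcl10 of the Card9 branch (0.0410 and 0.119) and Adam10, a protease that sheds Trem2 (0.0979 and 0.241). In set F the gap was small for Bcl10 (0.0591 in Apoe-high, 0.0606 in homeostatic-marked cells) and for Adam10 (0.126 and 0.136). The 17 named partner genes kept their direction within B and within F, the size of the gap varying as in these examples. They were chosen by their pooled ratio, to which B and F contribute, and the share of all genes keeping direction was not counted. The limit on how many were named left out Pirb, Malt1 and Ms4a6c. Malt1 and Ms4a6c also kept their direction, but Pirb did not in B (0.0754 in Apoe-high, 0.0756 in homeostatic-marked cells). In F, Clec4d, Cd300lf, Clec12a and Cblb had no value in homeostatic-marked cells. Where the homeostatic-marked value rests on 3 to 7 cells, the ratio is not well determined.

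**Figure D4:**
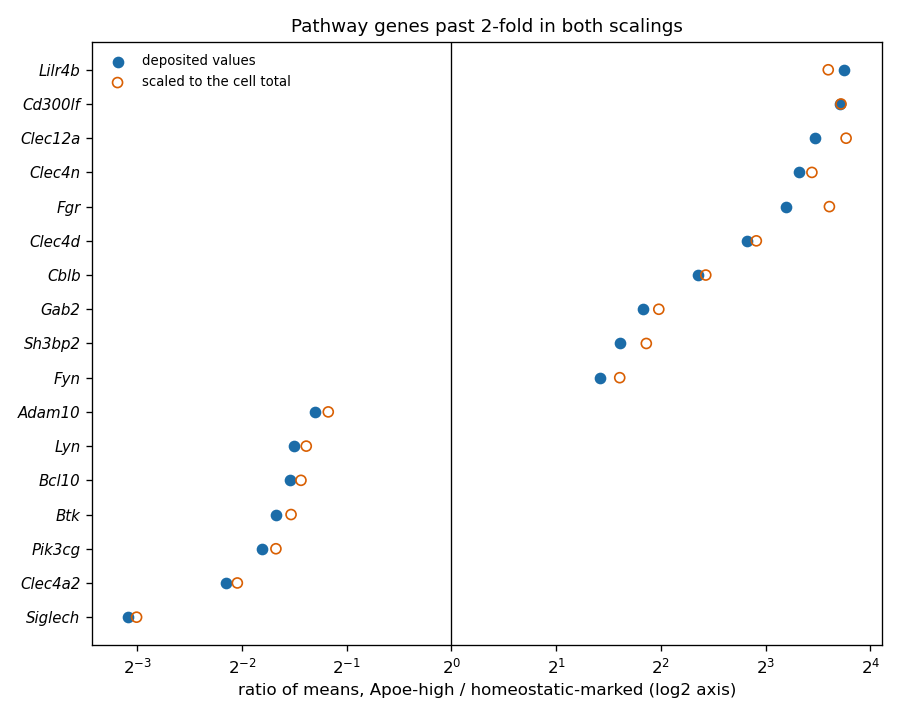
Ratio of mean values in Apoe-high over homeostatic-marked cells (log2 axis) for the pathway genes past 2-fold on both deposited (filled) and scaled (open) values, up to 10 each way. Siglech has the lowest ratio (0.12) and Lilr4b the highest on deposited values (13.5), where it was found in 5 homeostatic-marked cells.

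Across 23 groups of at least 50 cells (class or lineage within a set), Tyrobp was the gene whose log2(mean + 0.05) was most like Trem2 (Pearson r = 0.98), ahead of Hexa (0.94) and Timp2 (0.94), among 1199 genes that are neither markers nor gating genes. Without the 7 oligodendrocyte-like and endothelial-like groups the Trem2 and Tyrobp value was 0.81 over 16 groups. Tyrobp was next closest to Fcer1g (0.96), another ITAM adaptor, but that likeness was 0.08 in the 16 myeloid groups. Clec7a was most like H2-Ab1 (0.97), H2-Eb1 (0.97) and Cd74 (0.97), all of them genes of MHC class II presentation, and these values were 0.99, 0.99 and 0.99 in the 16 groups. Cd33 was most like Unc93b1, Lat2 and Lair1 (0.93 to 0.94), Syk like Spi1, Hcls1 and Lgmn (0.92), Plcg2 like Ddost, Asah1 and Itm2b (0.88 to 0.90), and Inpp5d like Fyb, Unc93b1 and Lair1 (0.96 to 0.97). In the 16 myeloid groups these values were lower, at 0.75 to 0.81 for Cd33, 0.70 to 0.78 for Syk, 0.40 to 0.61 for Plcg2 and 0.75 to 0.78 for Inpp5d, and 0.77 (Hexa) and 0.64 (Timp2) for Trem2. Among the members themselves, Trem2 and Clec7a had r = 0.52 over the 23 groups and r = -0.28 over the 16. These are descriptions over groups that share sets and cells' depth, with no p-value.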

How the data were processed

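Single-cell libraries of mouse spinal cord were made with a droplet method (10x Genomics) and, per the labels, processed with Cell Ranger 7.1.0 and Seurat 4.3.0.1 on build GRCm38. The deposited values form a gene by cell table of whole numbers, treated as a score because the totals per cell (687 to 1578) span a narrower range than raw UMI counts usually do and the step that made them is not given in the sources used here. Depth is therefore unknown, cells could not be thinned to equal depth, and no count model was run. No label or cell name assigns cells to libraries, and sets were not assigned by their size, so the planned comparison of Nd6 EAE with WT EAE was not run. No doublet caller was run.

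Means, SDs over cells, ratios of means and shares with exact Clopper-Pearson 95% intervals came from scripts in Python 3.11.15 with scipy 1.17.1 for intervals, numpy 2.4.6, pandas 2.3.3 and matplotlib 3.10.9, and the ratio step was tested on simulated data. The members and gene lists were chosen with earlier results of these data known. Named partner genes had a mean of at least 0.02 and a ratio of at least 2 or at most 0.5 on deposited and on scaled values, up to 10 each way. Of the marker genes, Lyve1, Mzb1, Igf2 and Pmp2 were not analysed here. Alternatives covered scaling, gates, filters, gene number, single sets and lineage limits.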

Additional observations from a re-analysis of the deposited data

How the results depend on the processing

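No paired analysis was possible because no label links a cell to a replicate of any group. Each member's difference (Apoe-high minus homeostatic-marked) was recomputed under 18 alternatives and compared with the spread between sets (scaled values after return to the deposited scale by the median cell total), giving 108 values within that spread with the same sign, 13 beyond it and 5 of opposite sign, all 5 for Tyrobp. Tyrobp was 1.70 after scaling, 0.00938 with values capped at 5, 0.213 at Apoe of 50 or more and 0.0471 within set F, and ran between -0.34 and 0.0514 when single sets were left out, positive only without set B. For Trem2 the gap was -0.0086 at Apoe of 50 or more, which still counts among the 108. The spread was larger than the difference itself for Trem2 (0.439) and Tyrobp (0.356). For these 2 members the tally therefore cannot show that the size of the difference is stable. Within set B the difference was -0.89 for Trem2, 0.173 for Clec7a, -0.0079 for Plcg2 and -0.121 for Inpp5d, and within set F 0.223 for Clec7a, -0.0997 for Syk and -0.191 for Inpp5d. At P2ry12 + Tmem119 of 4 or more it was -0.133 for Cd33, -0.0835 for Plcg2 and -0.123 for Inpp5d. Cd33 was -0.0576 at Apoe of 50 or more, -0.0643 with doubly gated cells in both classes and -0.0646 in the middle of the gene number range. The causes were not tested. In the 5 resident lineages, Trem2 was above 0 in 5.75% and Tyrobp in 11.8% of cells with at most 1 pan-myeloid gene, and Tyrobp in 38.0% with at least 4 markers. With limits of 10 and 20, chosen after the data were seen, Trem2 was in 17.1% and 29.6% and Tyrobp in 32.4% and 52.2%. Genes past 1.5-fold numbered 1275 higher and 1562 lower, against 205 and 381 of 1258 at a minimum mean of 0.1 and 4172 and 3901 of 15182 with no minimum, since fewer or more genes were then tested. Leaving out cells with any monocyte marker, also added later, changed no sign.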
